A study of Homo sapiens with 16 samples.

Results

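The regions described here are the 973 Myc peaks of U2OS_CHR cells that overlapped a BMAL1 peak in both U2OS_CHR and U2OS_WT cells. They were chosen by overlap with the deposited peak lists: a peak of the Myc list had to share 1 bp or more with a BMAL1 peak of at least 1 of 6 U2OS_CHR lists and of at least 1 of 6 U2OS_WT lists. Of 2487 Myc peaks, 973 met that rule, which is 39.1% (Wilson 95% interval 37.2 to 41.1%), and they are called shared peaks below. The others were 333 Myc peaks with BMAL1 in U2OS_CHR only (13.4%), 77 with BMAL1 in U2OS_WT only (3.10%) and 1104 with BMAL1 in neither line (44.4%). The overlaps, their number and their times thus chose the members and are given as a description, without a test.

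Chromatin immunoprecipitation and sequencing had been done in U2OS, a human osteosarcoma cell line labelled U2OS_WT, and in a line labelled U2OS_CHR or U2OS-CHR. BMAL1 was precipitated at time labels 0, 4, 8, 12, 16 and 20 h in U2OS_CHR and in U2OS_WT, 1 library per line and time. All of these cultures had received 200 nM dexamethasone, a glucocorticoid that synchronises the clocks of cultured cells, and collection began 4 h before the trough of a luciferase reporter driven by the BMAL1 promoter. The single Myc library came from U2OS_CHR, carries neither a time nor a treatment label and has no replicate; the series design names its target as Myc-CHRONO. The labels do not say how the U2OS_CHR line was made, how much CHRONO it holds or whether it is 1 clone. No Myc list of a line without tagged CHRONO was analysed here, so whether the antibody also recovered the cell's own MYC protein was not tested. Gene expression was not measured, so the labelled cell type could not be checked against marker genes. The 3 input libraries were not analysed here.

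BMAL1 pairs with CLOCK, and the pair binds a short DNA element, the E-box CACGTG, to activate clock genes. Among its targets are the PER and CRY genes, whose products feed back to repress the pair, and NR1D1 and NR1D2, which encode the nuclear receptors REV-ERB alpha and beta that repress BMAL1 itself. CHRONO, the product of CIART, binds BMAL1 and represses the activity of the pair. The MYC and MAX pair and the lysosomal regulators of the TFEB family also recognise CACGTG, so that element by itself does not name the factor bound.

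To show what the shared peaks covered, the promoter windows under 3 of the highest-scoring ones at clock genes and under 2 at genes outside the clock are printed first. They run 5′ to 3′ on the strand of the gene from 250 bases before to 50 after its start, from RefSeq, GRCh38.p14, and each CACGTG is in capitals. The windows are NR1D1 at chr17:40100540-40100839 on the minus strand, BHLHE40 at chr3:4979187-4979486 and NR1D2 at chr3:23945871-23946170, both on the plus strand, LAMP1 at chr13:113296989-113297288 on the plus strand and CDK4 at chr12:57752261-57752560 on the minus strand.
NR1D1: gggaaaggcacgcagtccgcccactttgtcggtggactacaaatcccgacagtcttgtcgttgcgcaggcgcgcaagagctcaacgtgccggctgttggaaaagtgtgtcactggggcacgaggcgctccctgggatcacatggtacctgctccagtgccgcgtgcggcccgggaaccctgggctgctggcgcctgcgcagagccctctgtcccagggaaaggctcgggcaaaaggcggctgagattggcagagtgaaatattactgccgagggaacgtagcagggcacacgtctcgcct
BHLHE40: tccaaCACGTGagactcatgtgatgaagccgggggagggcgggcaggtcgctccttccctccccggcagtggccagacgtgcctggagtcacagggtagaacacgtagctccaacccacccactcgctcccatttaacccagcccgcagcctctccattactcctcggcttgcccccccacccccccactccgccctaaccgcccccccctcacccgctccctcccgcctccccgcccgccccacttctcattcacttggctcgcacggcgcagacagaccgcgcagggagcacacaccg
NR1D2: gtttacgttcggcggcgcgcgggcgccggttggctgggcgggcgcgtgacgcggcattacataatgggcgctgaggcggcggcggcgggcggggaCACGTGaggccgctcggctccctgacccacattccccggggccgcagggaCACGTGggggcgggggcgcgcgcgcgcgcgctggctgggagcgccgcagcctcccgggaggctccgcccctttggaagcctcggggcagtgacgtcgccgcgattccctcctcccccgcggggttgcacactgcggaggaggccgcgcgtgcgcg
LAMP1: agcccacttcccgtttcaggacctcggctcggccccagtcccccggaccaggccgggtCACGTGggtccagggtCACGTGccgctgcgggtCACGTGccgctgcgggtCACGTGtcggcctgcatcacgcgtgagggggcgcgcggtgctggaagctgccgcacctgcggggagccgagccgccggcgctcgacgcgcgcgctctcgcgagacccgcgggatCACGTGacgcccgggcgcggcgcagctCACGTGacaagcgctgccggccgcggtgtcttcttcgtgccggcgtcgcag
CDK4: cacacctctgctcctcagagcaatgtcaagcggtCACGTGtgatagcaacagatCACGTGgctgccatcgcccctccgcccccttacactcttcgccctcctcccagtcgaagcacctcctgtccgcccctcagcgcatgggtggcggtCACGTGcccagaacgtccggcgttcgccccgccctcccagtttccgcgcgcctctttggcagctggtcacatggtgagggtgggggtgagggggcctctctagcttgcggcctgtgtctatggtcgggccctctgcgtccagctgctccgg
The NR1D1 window, under the shared peak ranked 4 in the Myc list, held no CACGTG. The BHLHE40 window held 1 and the NR1D2 window 2. The window of LAMP1, a lysosomal membrane protein, held 6, the nearest of them 10 bases apart, and that of CDK4, a kinase of the G1 phase, held 3. The printed windows are examples, were not taken in order of score and do not show how common E-boxes were. Windows under the shared peaks at DBP (rank 5), PER2 (rank 9), PER3, CRY1 and CRY2 held no CACGTG, while it was present at TEF (rank 6) and CLUAP1 (rank 11).

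Sites with 1 E-box show how its neighbours vary. The 6 below are 30 bases each, with the E-box in the middle and in capitals; they come from RefSeq, GRCh38.p14, are high-scoring cases among the remaining shared peaks at an end of a protein-coding gene whose window held 1 E-box clear of its edges, and were chosen after their values were seen. They lie at chr9:128787162-128787191 (plus), chr18:13726626-13726655 (minus), chr1:32650959-32650988 (minus), chr17:64506651-64506680 (minus), chr12:121888647-121888676 (plus) and chr1:235128988-235129017 (minus).
TBC1D13: gtcgaggggtggCACGTGactggcggggcg
FAM210A: aggtgcgagagtCACGTGgagacggtcagg
ZBTB8OS: cccggtcagggtCACGTGagagaggtttgg
DDX5: gggtggtacagcCACGTGacaacgccaggc
PSMD9: tcaccacaggcgCACGTGttccggcagggc
TOMM20: aaagtccgtggtCACGTGcaaattcccgac
Among their genes, DDX5 encodes an RNA helicase, PSMD9 a chaperone of proteasome assembly and TOMM20 a receptor for protein import into mitochondria.

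Shared peaks made up the top of the Myc list. The score is the authors' own value per peak, used here only within a list, and the median score was 69.66 for shared peaks, 60.38 for those with BMAL1 in U2OS_CHR only, 59.26 for U2OS_WT only and 54.34 for neither. All 50 highest-scoring Myc peaks were shared, as were 91 of the first 100. In steps of 250 by rank, 205 of the first 250 were shared (82.0%), then 167, 126, 94 and 65, and 59 of the last 237 (24.9%). The decline was not even, since the steps from rank 1251 to 1500 and from 1501 to 1750 held 88 and 77. Higher-scoring peaks were also wider, with a Spearman correlation of 0.63 between score and width over the 973 shared peaks, which share 1 library. Median width was 195 bp for shared peaks and 164, 168 and 144.5 bp for the classes with BMAL1 in U2OS_CHR only, in U2OS_WT only and in neither line, and a wider peak has more room to overlap. The part of width in the counts was not tested.

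**Figure D1:**
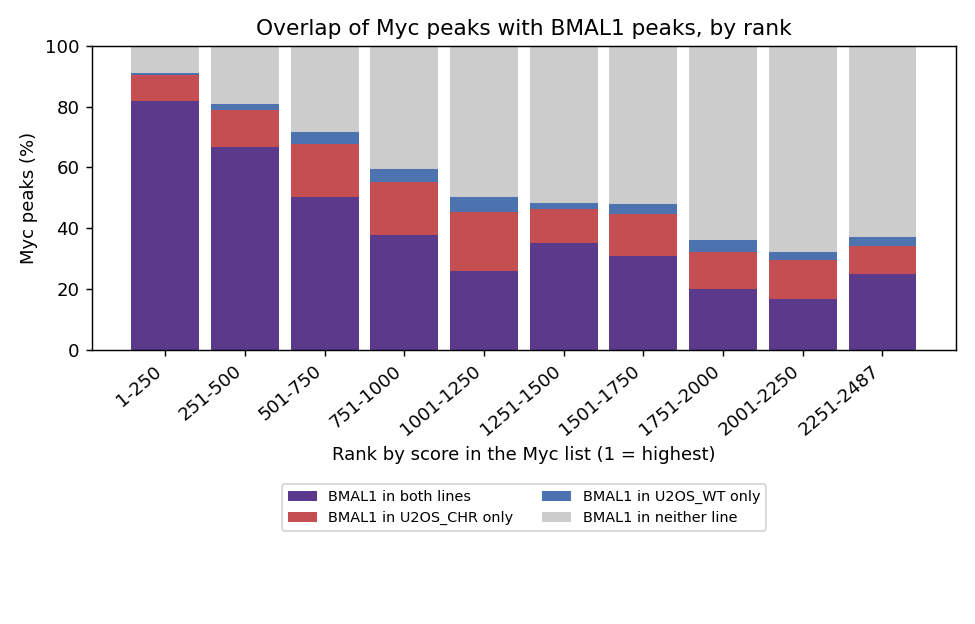
Share of Myc peaks (y axis, %) with BMAL1 in both lines, in U2OS_CHR only, in U2OS_WT only or in neither line, in steps of 250 peaks by rank in the Myc list (x axis, the last step holds 237). The share with BMAL1 in both lines was 82.0% in the first step and 24.9% in the last.

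Coordinates of peaks are those of the lists, hg38. The highest-ranked Myc peak that was not shared had rank 64. It lay within 5 kb of or inside ZFAT, a zinc finger gene, at chr8:134712757-134713273, had a score of 156.94 and overlapped BMAL1 at 5 U2OS_CHR times and no U2OS_WT time. The next, of rank 68, lay at an end of CHCHD2, a mitochondrial protein gene, and overlapped BMAL1 in no library. Rank 85, at an end of the ribosomal protein gene RPL37, had no BMAL1 either. At the edge of the rule, the shared peak with the least overlap, chr12:57088991-57089123, shared 88 bp with BMAL1 in U2OS_CHR and 9 bp in U2OS_WT. The next 4 shared 12, 21, 22 and 30 bp in U2OS_WT. Just outside it were 5 Myc peaks with a gap of 2, 5, 13, 14 and 31 bp to the BMAL1 peak of a missing line. Such cases were few: in 858 shared peaks (88.2%) the whole Myc peak lay inside a BMAL1 peak of each line, and in 956 (98.3%) at least 50% of it was covered.

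Core clock genes were the list with the largest share of genes with a shared peak at an end. Of 21 core clock genes, 9 had one within 1 kb of a gene end, counting both ends of a protein-coding gene, against 437 of 20037 protein-coding genes (2.18%). These were NR1D1, NR1D2, the output activator DBP, the repressors BHLHE40 and BHLHE41, PER3, CRY1, CRY2 and CIART. With peaks inside the gene or within 5 kb the count was 12, against 794 of 20037 genes (3.96%), and it then took in PER1, PER2 and TEF, an output activator like DBP. No other Myc peak lay at an end of a core clock gene. The list was written with earlier results of these data known, so the count is a description.

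NR1D1 had 3 shared peaks in or at the gene and 1 more 7567 bp away. The one inside the gene, chr17:40098928-40099492, had a Myc score of 533.15 and rank 2, and overlapped the BMAL1 peaks ranked 1, 2, 1, 1, 1 and 1 in the U2OS_CHR lists of 0 to 20 h and 4, 4, 4, 4, 3 and 1 in the U2OS_WT lists. The one at the promoter, chr17:40100445-40101080, with a score of 501.12, overlapped BMAL1 peaks of ranks 1, 2, 4, 1, 1 and 1 in U2OS_CHR and 5, 4, 4, 10, 3 and 1 in U2OS_WT. Both were thus among the 10 highest BMAL1 peaks of each of the 12 lists. In several lists a single BMAL1 peak covered both, so their ranks are not independent. The distant one, chr17:40108156-40108556, had a Myc score of 529.51 and BMAL1 ranks from 8 to 19 in U2OS_CHR and from 7 to 31 in U2OS_WT.

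At DBP, where the peak also lies at the end of the neighbouring carbonic anhydrase gene CA11, chr19:48637270-48638051 scored 477.13. Its BMAL1 ranks were 2, 3, 3, 2, 2 and 2 in U2OS_CHR and 3, 2, 3, 3, 1 and 2 in U2OS_WT. TEF, with chr22:41381090-41381866 inside the gene and the same score of 477.13, had BMAL1 ranks 3, 4, 2, 3, 5 and 3 in U2OS_CHR and 1, 5, 1, 1, 2 and 3 in U2OS_WT. These 2 genes of the same bZIP family thus held BMAL1 peaks within the first 5 of each list in both lines. BHLHE40, at chr3:4978689-4979343 with a Myc score of 398.33, had ranks between 4 and 15 in U2OS_CHR and between 11 and 24 in U2OS_WT. NR1D2, at chr3:23945780-23946216 with a Myc score of 354.26, lay at an end shared with NKIRAS1 and had ranks between 9 and 32 in U2OS_CHR and between 7 and 13 in U2OS_WT. Ranks of lists of different length show no change between lines or times.

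The PER and CRY genes, which encode the repressors of the feedback loop, were marked to different degrees. The highest shared peak of PER1 lay outside the gene and nearer to VAMP2, at chr17:8156347-8156823, with a Myc score of 309.99 and BMAL1 ranks from 4 to 12 in U2OS_CHR and from 2 to 4 in U2OS_WT. PER2 had a shared peak inside the gene, chr2:238288612-238289116, with a Myc score of 386.83 and ranks from 12 to 55 in U2OS_CHR and from 8 to 20 in U2OS_WT. PER3, at chr1:7783851-7784229, scored 186.24, with ranks from 8 to 15 in U2OS_CHR and from 5 to 16 in U2OS_WT. All 3 overlapped BMAL1 at 6 times in each line.

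CRY1 and CRY2 stood lower in the Myc list. CRY2, at chr11:45847131-45847387, scored 169.48 and had BMAL1 ranks 93, 63, 155, 153, 140 and 143 in U2OS_CHR, and 9, 6, 6, 8, 22 and 6 in U2OS_WT. CRY1, at chr12:107093753-107094037, scored 137.66 and had ranks 196, 199, 1120, 241, 439 and 240 in U2OS_CHR, and 21, 26, 14, 18, 40 and 35 in U2OS_WT. Both genes had a BMAL1 peak at 6 times in each line, and every U2OS_CHR rank was a larger number than every U2OS_WT rank. BHLHE41 at chr12:26126022-26126229 (score 77.05) overlapped BMAL1 at 6 U2OS_CHR and 4 U2OS_WT times. CIART, the gene of CHRONO itself, had 2 shared peaks of scores 88.22 and 55.31, with BMAL1 at 4 and 3 U2OS_CHR times and at 2 and 1 U2OS_WT times.

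Among the 15 highest-scoring shared peaks, 9 are the ones at or near core clock genes given above. The first of all, chr17:74513907-74515134, is not: it scored 700.05, was 1228 bp wide and lay 6040 bp from CD300LB, an immune receptor gene. Its BMAL1 ranks were 16, 3672, 1463, 3487, 345 and 62 in U2OS_CHR, while in U2OS_WT they were 46, 567, 528, 670 and 173 at 0, 4, 12, 16 and 20 h, with no peak at 8 h. The highest Myc score therefore stood on BMAL1 peaks that ranked unevenly within their lists. Another 4 were at chr17:82287937-82288440, 14187 bp from CSNK1D, which encodes a kinase of PER proteins; inside CLUAP1, a cilium gene; 24807 bp from STXBP4; and 4754 bp from ELFN2. The last of the 15 to be named lay inside KLF10, a TGF beta-induced zinc finger gene of the clock output list, with a score of 329.34 and BMAL1 at 6 U2OS_CHR and 4 U2OS_WT times.

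Outside the core clock the lists had smaller counts, to be read against the 2.18% of all protein-coding genes. Of 30 ribosome biogenesis and MYC target genes, 6 had a shared peak at an end: CDK4, the ribosome assembly chaperone NPM1, WDR43, the mitochondrial chaperonins HSPD1 and HSPE1, and the cap-binding protein EIF4E. CDK4 (score 216.51) had BMAL1 ranks of 28, 26, 23, 26, 31 and 25 in U2OS_CHR and 70, 80, 98, 115, 34 and 78 in U2OS_WT, and so was within the first 115 of each list. NPM1 (61.28) overlapped BMAL1 at 6 U2OS_CHR and 4 U2OS_WT times, and WDR43 (57.47) at 4 and 3.

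Of 21 genes of the list named MYC network, MGA, MAX, MNT and FNIP1 had one. MAX is the partner of MYC, and MNT and MGA bind MAX in competition with it. FNIP1, which encodes a folliculin-interacting protein, is on that list without being a partner of MYC or MAX. The MGA peak scored 168.71, the MAX peak 73.04 and the MNT peak 69.58. Of 27 lysosome and autophagy genes there were 3: LAMP1 with a score of 260.57 and BMAL1 at 5 times in each line, the hexosaminidase subunit HEXA at 67.97 and the autophagy regulator UVRAG at 57.04. The clock outputs had 3 of 21, with NAMPT, of NAD synthesis (79.20), KLF11 (70.16) and KLF10 (50.98), and the clock cofactors 1 of 20, the deacetylase gene SIRT1 (85.09). Of these, KLF11 overlapped BMAL1 at 6 times in each line, and NAMPT at 6 U2OS_CHR and 5 U2OS_WT times. The KLF10 peak at a gene end had BMAL1 at 4 U2OS_CHR and 2 U2OS_WT times. It is not the peak inside KLF10 named above, which scored 329.34.

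The remaining lists had between 0 and 3 genes each. Glucocorticoid-induced genes had 3 of 22 (BIRC3, SLC19A2 and CEBPB), glycolysis 2 of 23 (the lactate transporter SLC16A1 and pyruvate kinase PKM), cytosolic ribosomal proteins 2 of 27 (RPL27 and RPL18) and cell cycle genes 2 of 28 (AURKA and MCM7). Other Myc peaks lay at an end of 5 cell cycle genes and 4 ribosomal protein genes, and of 655 of the 20037 protein-coding genes (3.27%). None of 15 osteoblast genes had a shared peak at an end, in the gene or within 5 kb. Of 22 genes of other cell types SNAP25, a neuronal gene, had one at an end, with a score of 147.50 and BMAL1 in 11 libraries. With peaks in the gene or within 5 kb there were 3 of the 22, with RBFOX3 and PECAM1, against 3.96% of all protein-coding genes. These lists hold few genes each, so single genes move their shares by several points.

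BMAL1 was called at the shared peaks at most times, and more often in U2OS_CHR. From 0 to 20 h, 813, 873, 537, 634, 890 and 842 of the 973 overlapped a BMAL1 peak in U2OS_CHR, and 658, 804, 141, 405, 542 and 754 in U2OS_WT. The mean share was 78.6% ± 14.9 in U2OS_CHR and 56.6% ± 25.4 in U2OS_WT (SD, n = 6 times each), and both lines had their lowest count at 8 h. The U2OS_CHR list was the longer at every time, with 2429 to 9391 peaks against 337 to 6012 in U2OS_WT, and the 8 h list was the shortest of each line. Read depth is unknown, so list length and binding cannot be told apart here. Shared peaks overlapped the upper part of each list: the median percentile of their BMAL1 peaks by score lay between 81.9 and 90.01 in U2OS_CHR and between 76.9 and 86.2 in U2OS_WT.

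The strongest BMAL1 peaks were largely at shared peaks in both lines. Of the 100 highest-scoring BMAL1 peaks of a list, 87, 87, 79, 84, 88 and 87 touched a shared peak in U2OS_CHR and 77, 78, 73, 77, 76 and 80 in U2OS_WT. Of whole lists, 9.03 to 21.2% did in U2OS_CHR and 11.9 to 37.7% in U2OS_WT. Of the first 10 peaks, all 10 did in each list but the U2OS_WT list of 8 h, where 9 did. The rule asks for overlap with these lists, so the high counts at the top describe where the members lie.

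**Figure D2:**
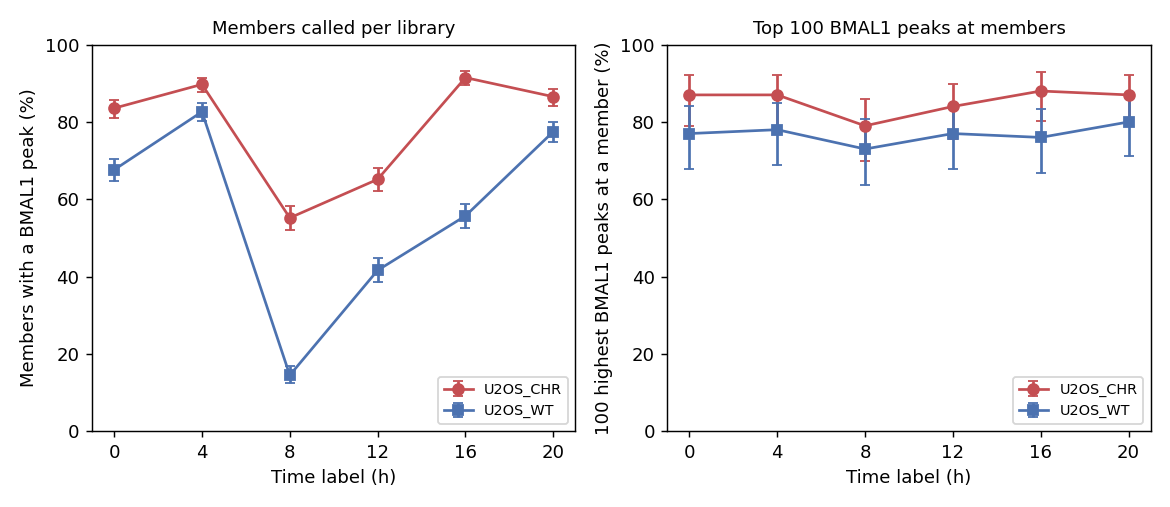
Left, share of the 973 shared peaks with a BMAL1 peak in each library (y axis, %) by time label (x axis, h), in U2OS_CHR and U2OS_WT; right, share of the 100 highest-scoring BMAL1 peaks of each list that touched a shared peak. Points are single libraries and bars Wilson 95% intervals for counting error; the left counts were lowest at 8 h in both lines, 537 in U2OS_CHR and 141 in U2OS_WT, while on the right all 12 lay between 73 and 88%.

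Counted per peak, 669 of the shared peaks (68.8%) had BMAL1 at more times in U2OS_CHR, 241 (24.8%) at as many, and 63 (6.47%) at more times in U2OS_WT. The same split over all BMAL1 regions of both lines is not given here. Whether it is particular to the shared peaks was not tested. BMAL1 was present at all 6 U2OS_CHR times in 485 and at all 6 U2OS_WT times in 131. In 128 (13.2%) it was present in all 12 libraries. A further 171 had 6 U2OS_CHR and 5 U2OS_WT times, and in 168 of them the missing library was U2OS_WT at 8 h. At 1 time in each line only there were 40 (4.11%). Most shared peaks, 892 (91.7%), had BMAL1 in both lines at the same time at least once. These counts moved with list length and with 8 h, in alternatives chosen after seeing the data. With lists cut to equal length at each time, 457 of 914 shared peaks (50%) had more U2OS_CHR times and 144 (15.8%) more U2OS_WT times. Without 8 h, 494 of 973 (50.8%) had more U2OS_CHR times and 70 (7.19%) more U2OS_WT times.

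**Figure D3:**
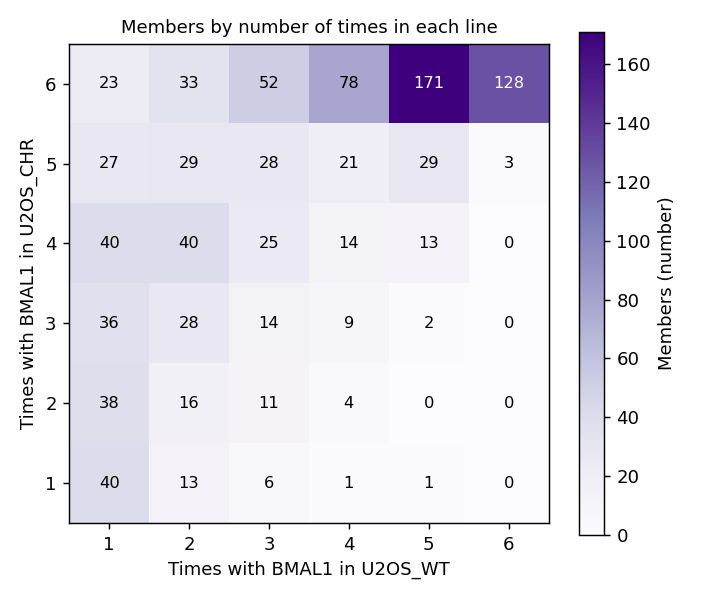
Number of shared peaks (printed in each cell and shaded) by the number of times with BMAL1 in U2OS_CHR (y axis, 1 to 6) and in U2OS_WT (x axis, 1 to 6). The largest cells are 6 with 5 times (171) and 6 with 6 times (128); cells above the diagonal, with more U2OS_CHR times, hold 669.

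The shared peaks with the most uneven times in each direction are named here, though the 2 directions were not alike in number. BMAL1 at 6 U2OS_CHR times and 1 U2OS_WT time was seen in 23 shared peaks, of which the 5 with the highest Myc score follow. They were a site 107537 bp from ATF7IP (119.81), the end of CCDC88A (86.32) and a site inside ZNF469 (81.17). The others were one inside MRPL36, a mitochondrial ribosomal protein gene (75.23), and one 7825 bp from THSD4 (73.27). In the other direction only 1 shared peak, 28830 bp from NDUFV2, had BMAL1 at 1 U2OS_CHR and 5 U2OS_WT times. The end of SF3B1, a splicing factor gene, had it at 1 and 4. A site 18450 bp from CSF2 had 3 U2OS_CHR and 5 U2OS_WT times, one 22148 bp from CBX7 had 1 and 3, and the end of PKM 2 and 4. The only U2OS_CHR peak at SF3B1 had rank 5286 in a list of 8240.

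Myc peaks went with the number of BMAL1 libraries. After merging the 12 lists, 5652 regions had BMAL1 in both lines, and 934 of them (16.5%) held a Myc peak. Of these regions, 167 (2.95%) had a BMAL1 peak in all 12 libraries, and 118 of those (70.7%, 63.4 to 77.0%) held a Myc peak. The share with a Myc peak was 29.0% among regions in 8 to 11 libraries, 11.8% among those in 4 to 7, and 5.60% among those in 2 or 3. Regions in more libraries were also wider, and the part of width was not tested. Among the shared peaks the Myc score followed the same order, with medians of 92.63, 72.42, 62.13 and 59.62 for 12, 8 to 11, 4 to 7 and 2 or 3 libraries. The Spearman correlation of Myc score and number of libraries was 0.33 over the 973 peaks, which come from the same 13 lists.

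E-boxes were frequent at the promoters with shared peaks. The 973 peaks overlapped 364 of 34943 RefSeq promoter windows of 300 bases, and 171 of the 364 (47.0%, 41.9 to 52.1%) held CACGTG, read on both strands. Of all windows 2526 (7.23%) did. Of windows under Myc peaks with BMAL1 in U2OS_CHR only, 35 of 171 did (20.5%), under those with BMAL1 in U2OS_WT only 5 of 50 (10%) and under those without BMAL1 21 of 366 (5.74%, 3.78 to 8.61%). The last share was near that of all windows, and the interval for U2OS_WT only (4.35 to 21.4%) takes in both. Windows under BMAL1 regions of both lines without Myc held it in 427 of 1246 cases (34.3%, 31.7 to 36.9%).

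The same letters in another order, GACGTC, which also contain CpG, were in 6.87% of the windows with shared peaks and in 5.01% of all windows. They were in 8.35% of windows at BMAL1 regions without Myc and 9.84% at Myc peaks without BMAL1. At Myc peaks with BMAL1 in U2OS_CHR only the share was 10.5%, and in U2OS_WT only 4% of 50 windows. Windows with shared peaks had a median GC content of 66.0%, against 58.7% for all windows, and held the GC box GGGCGG in 75.5%, against 74.6% at BMAL1 regions without Myc, 64.8% at Myc peaks without BMAL1 and 44.9% of all windows. The median GC content was 65.3% for windows of BMAL1 regions without Myc and 63.7% for windows of Myc peaks without BMAL1. A related element, CACGCG, was in 34.9% of the windows with shared peaks, 22.95% of those of BMAL1 regions without Myc, 17.8% of those of Myc peaks without BMAL1 and 11.4% of all windows. CAGCTG (18.7% and 17.9%), the D-box TTATGTAA bound by DBP and TEF (1.10% and 0.890%) and AGGTCA, the half-site of REV-ERB and ROR receptors (13.2% and 13.8%), were about as frequent as in all windows. CACGCG and GGGCGG can overlap in sequence, and no motif was required to be apart from another. Windows of BMAL1 regions without Myc were those touched by whole merged regions, with a median width of 508 bp. The shared Myc peaks had a median width of 195 bp. Only for the E-box was a like basis also counted, as given below.

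The E-box lay close to the Myc peak centre. Of 279 shared peaks at a promoter window, 137 (49.1%) had an E-box in it, and in 117 it was inside the peak itself. The median distance from the Myc centre to the nearest E-box was 31 bp, and 89 of the 137 (64.96%, 56.7 to 72.4%) lay within 50 bp. Among other Myc peaks 46 of 431 had an E-box in a window (10.7%), at a median of 52 bp. Of those 46, 47.8% (34.1 to 61.9%) lay within 50 bp, an interval that overlaps that of the shared peaks. The nearest E-box was taken where a window held several, and overlap with a window bounds the distance. For GACGTC the median was 57.75 bp in the 22 shared peaks that had one, and 45.5% of them (26.9 to 65.3%) lay within 50 bp. The share with an E-box did not follow the Myc score: it was 49.5% in the 93 highest-scoring of the 279, 47.3% in the next 93 and 50.5% in the 93 lowest. Centres lay upstream of the nearest gene start in 241 of 279 (86.4%), at a median position of -78.5 bases; the windows reach further upstream than downstream, which favours that side.

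**Figure D4:**
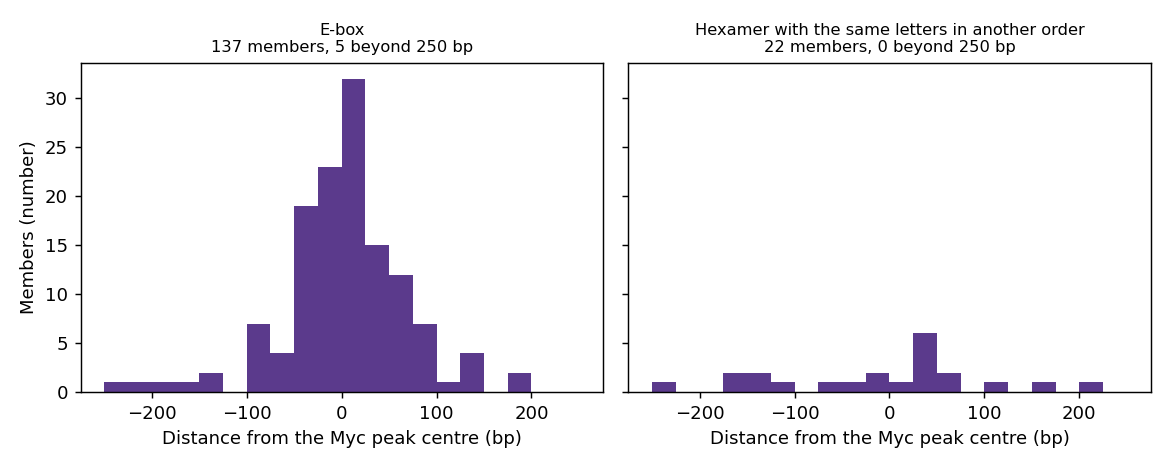
Number of shared peaks (y axis) by the distance in bp from the Myc peak centre to the nearest E-box (left, x axis) or the nearest hexamer of the same letters in another order (right, x axis) on the same promoter window, in steps of 25 bp. Of 137 shared peaks with an E-box 89 lay within 50 bp of the centre, and 22 had the other hexamer.

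More than 1 E-box was also common. Of the 364 windows, 49 (13.5%, 10.3 to 17.4%) held 2 or more, against 231 of all 34943 (0.661%) and 2 of the 366 windows under Myc peaks without BMAL1. Neighbouring genes can share E-boxes, so these windows are not all separate sites. Part of the gap follows from the larger share of windows with any E-box. Among windows with at least 1, those with 2 or more were 28.7% for shared peaks (22.4 to 35.8%) and 9.14% over all windows. Under Myc peaks without BMAL1 they were 9.52% of 21 (2.65 to 28.9%). The count for BMAL1 regions without Myc is not given here. LAMP1 had 6, and AMDHD2, BAX, an activator of cell death, and RAD9A, of the DNA damage checkpoint, had 4. Genes with 2 included NR1D2, SIRT1, FNIP1, EIF4E and ATG3, an autophagy enzyme, as well as CLCN7, a lysosomal chloride transporter, and GALNS, a lysosomal sulfatase; AMDHD2, BAX, RAD9A, ATG3, CLCN7 and GALNS were picked after their values were seen. The base on either side of the E-box was T in 40.6% of 374 flanks (35.8 to 45.7%), counted so that both strands read outward alike, against 30.7% in all windows and 35.0% (31.8 to 38.2%) at BMAL1 regions without Myc. The full TCACGTGA was in 14.4% of the 187 E-boxes (10.1 to 20.2%), and in 12.3% of those of all windows. Flanks at BMAL1 regions without Myc were not counted on a like basis either.

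Set against BMAL1 regions without Myc, the E-box share depended on how windows were assigned. Among the shared peaks' own windows it was 46.2% in 12 libraries, 58.1% in 8 to 11 (50.5 to 65.3%), 41.1% in 4 to 7 and 17.1% in 2 or 3. Whole merged regions are wider and touch more windows; on that basis the share was 38.9% of 481 windows with a Myc peak (34.6 to 43.3%) and 34.3% of 1246 without one (31.7 to 36.9%). With only the central 200 bp of each region, a basis added after seeing the data, it was 47.6% of 328 windows with Myc (42.2 to 53.0%) and 38.2% of 1031 without (35.3 to 41.2%). Within like numbers of libraries the central windows had shares of 59.4% with Myc and 58.3% without in 12 libraries, 58.2% and 53.8% in 8 to 11, 40.7% and 41.4% in 4 to 7, and 16.2% and 20.1% in 2 or 3. On whole regions these were 44.1% and 59.3%, 45.0% and 45.8%, 33.8% and 36.8%, and 15% and 18.2%. In each of these steps, on either basis, the intervals with and without Myc, which cover counting error only, overlapped.

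Position relative to genes differed between regions with and without a Myc peak. Of the shared peaks 379 (39.0%, 35.9 to 42.1%) lay at a gene end, 281 (28.9%) elsewhere inside a gene, 44 (4.52%) within 5 kb and 269 (27.6%) farther away. Of Myc peaks without BMAL1 29.98% (27.4 to 32.8%) lay at a gene end. Of those with BMAL1 in U2OS_CHR only 46.5% did (41.3 to 51.9%), and of the 77 with BMAL1 in U2OS_WT only 49.4% (38.5 to 60.3%). Of merged BMAL1 regions of both lines, 38.4% of the 934 with a Myc peak had their centre within 1 kb of a gene end (35.4 to 41.6%), against 21.2% of the 4718 without one (20.1 to 22.4%). That gap was present at 8 to 11 libraries (37.2% and 21.8%), 4 to 7 (42.1% and 20.7%) and 2 or 3 (37.6% and 21.02%), each with intervals apart. At 12 libraries the shares were 34.7% of 118 with Myc and 36.7% of 49 without, with overlapping intervals. All of these intervals cover counting error over regions, with 1 Myc library, and not the spread between libraries. Regions with Myc were wider, with a median of 740.5 bp against 508 bp, and centres were used so that no region counted by its edge alone. Whether width has another part in this difference was not tested.

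**Figure D5:**
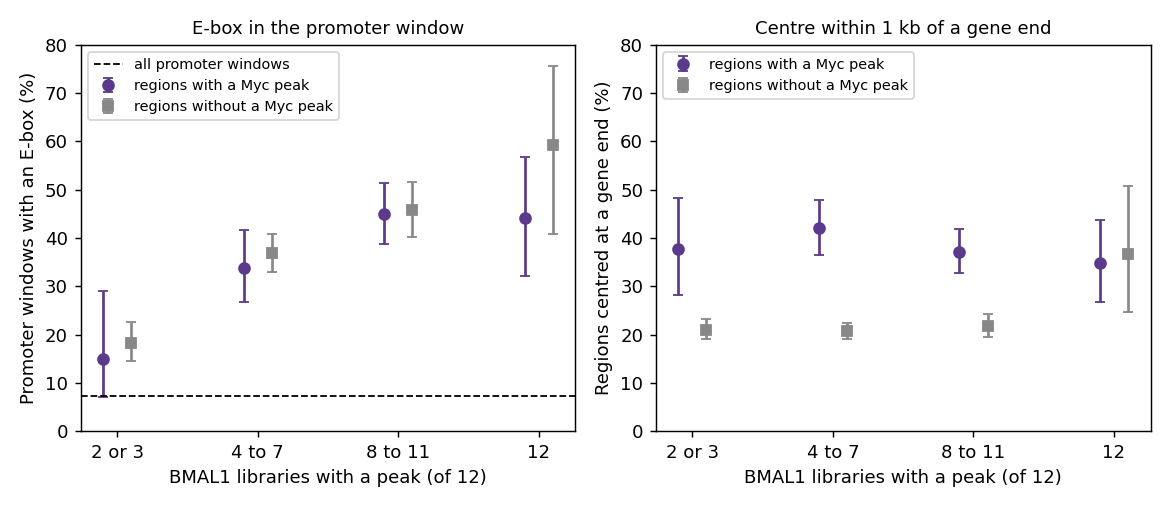
Left, share of promoter windows touched by whole merged regions that held an E-box (y axis, %; dashed line, all windows) and right, share of merged BMAL1 regions of both lines centred within 1 kb of a gene end (y axis, %), by the number of BMAL1 libraries with a peak (x axis), for regions with and without a Myc peak. Bars are Wilson 95% intervals for counting error; the left intervals with and without Myc overlap in each step, and the right ones are apart except at 12 libraries.

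Distances between BMAL1 and Myc centres and widths of BMAL1 peaks are given by line and time without a test, since the overlap that chose the members bounds the distance and is easier for a wide peak. From 0 to 20 h the median distance between centres, over shared peaks with BMAL1 in both lines at that time, was 62.75, 74.75, 58, 49.25, 76 and 52 bp in U2OS_CHR and 42.75, 50, 75, 35, 52.75 and 62.25 bp in U2OS_WT. It was larger in U2OS_CHR at 4 of 6 times, and the ranges overlapped. The mean difference of 9.17 ± 18.1 bp (SD, n = 6 times) was within the spread over times.

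Median widths of the BMAL1 peaks were 568.5, 657, 485, 503, 693 and 541.5 bp in U2OS_CHR and 443, 467, 838, 304.5, 470 and 552.5 bp in U2OS_WT. They were wider in U2OS_CHR at 4 of 6 times, and the U2OS_WT value of 8 h stood highest of all. The log2 ratio had a mean of 0.22 ± 0.56 (SD, n = 6 times), or 1.16-fold, which was within the spread. Over all peaks of the lists the same ratio was -0.03 ± 0.73. At 8 h only 133 shared peaks entered, since the U2OS_WT list held 337 peaks. Without that time the mean difference in distance was 14.4 bp and the mean log2 width ratio 0.42. With 1 library per line and time, these spreads are among times and not among cultures.

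The shared peaks were spread over the genome in part in groups. Of the 973, 160 (16.4%) had another within 10 kb, such as those at NR1D1, DBP, BHLHE40 and CRY1 named above, so not every member is a separate locus. Chromosome 17 held 89, which is 51.4% of its 173 Myc peaks (44.0 to 58.8%), and chromosome 4 held 15 of 75 (20.0%, 12.5 to 30.4%). These are the highest and lowest shares of any chromosome, leaving out Y with 1 Myc peak, against 39.1% of all Myc peaks. None of the 14 Myc peaks on unplaced or other sequences was shared. Far from genes, the 5 highest-scoring shared peaks more than 5 kb from any protein-coding gene were those near CD300LB, NR1D1, CSNK1D and STXBP4 given above and chr16:4943276-4943638, 6128 bp from PPL, with a score of 283.20. The last had BMAL1 in all 12 libraries, with ranks from 21 to 62 in U2OS_CHR and from 17 to 73 in U2OS_WT.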

How the data were processed

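For each of 13 libraries (BMAL1 at 6 times in U2OS_CHR and in U2OS_WT, Myc in U2OS_CHR) 1 deposited list gives peak positions with a score. What the authors' score measures is not stated; its lowest deposited value was 50, and it was used only within a list. MACS 1.4.2, HOMER 4.10.3, bedtools and hg38 appear in the submitters' processing notes without their roles. Aligner, control and read depth: not given in the sources used here. Depth is therefore unknown, and peaks were taken as called per library.

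Overlap meant 1 shared bp; overlapping BMAL1 peaks were merged into 20968 regions. Genes (20037 protein-coding, both ends, no strand), starts and 34943 promoter windows came from RefSeq tables of GRCh38.p14, which are not complete. The 12 gene lists name 1 gene that the table did not hold, and exons were not used. Wilson 95% intervals cover counting error only. Exact paired tests of distance and width between lines had been planned. Overlap bounds the distance and is easier for a wide peak, so the values of both are described and no p is given.

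The members and the gene lists were chosen with earlier results of these data known. Genes were named by a rule: core clock genes with a shared peak in the gene or within 5 kb, the 15 highest-scoring shared peaks, up to 3 genes per other list, the 5 highest-scoring ones beyond 5 kb, the 5 with the largest difference in times each way, and those at the edge of the rule. Tried as alternatives were another overlap, score, window, motif or list size, 2 or more times per line, chromosomes 1 to 22 and X alone, no pairing, other summaries and each time left out. The classes were tested on simulated data, and bedtools 2.31.1 gave the same number of overlaps in 12 of 12 libraries. Computing used Python 3.11.15 with SciPy 1.17.1, NumPy 2.4.6 and, for plots, matplotlib 3.10.9.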

Additional observations from a re-analysis of the deposited data

How the results depend on the processing

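With a score of at least 100 in every list there were 165 shared peaks of 231 Myc peaks, and 52.7% of 74 windows held CACGTG. Counting CACGTG or CACGCG, 65.4% of windows with shared peaks held either, against 17.4% of all windows. A 5 kb window put 49.9% of shared peaks at a gene end. Under the other alternatives these results stayed within 1 SD, their interval or 1.5 times: equal list sizes gave 914 shared peaks, 2 or more times per line 748, and leaving out each time in turn 873 to 973. Counting 1 promoter window per shared peak (49.1% with an E-box) or the peak's centre at a gene end (38.2%) was chosen after seeing the data. The difference in distance lay between 2.63 and 14.8 bp and the log2 width ratio between 0.085 and 0.42, without a change of sign. With no replicate block, that is without pairing by time, these differences were 9.17 bp and 0.22, as with it. The 1 Myc list, the 337 peaks of U2OS_WT at 8 h and the unknown depth limit these counts. Promoter sequence covers 279 of the 973 shared peaks, so nothing is known here of E-boxes at the others.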
